A study of Mus musculus with 18 samples.

Results

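The myosin light chains and sarcomeric actins described here are 8 genes of the 35150 that were summed from transcripts, chosen by name: the light chains Myl1, Myl2, Myl3, Myl4, and Mylpf, the skeletal light chain kinase Mylk2, and the actins Acta1 and Actc1. RNA was measured in punches of skin and muscle from the front of both whisker pads of 9 mice, 3 for each of days 1, 3, and 7 after surgery. In each mouse 2 branches of the facial nerve, the buccal and the superior marginal, were cut on the right side (denervated). The left side had only its skin opened and closed again, and its nerve was not cut (sham). Side of the face and lesion therefore cannot be told apart, and since each day used other mice and had no untouched animals, a change of the sham side with time was not measured against a baseline. The 9 mice were a group separate from those used for optogenetic stimulation, and were adults, while the methods name both sexes without giving the sex of each sample and the strain of this group is not given in the sources used here. Values are TPM, a level scaled for transcript length and for the size of a library, as the authors deposited them after scaling between samples, and the values of all transcripts of a gene were added.

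In the sarcomere, each myosin head carries an essential and a regulatory light chain, small subunits that stiffen and tune the lever arm, and it pulls on filaments of actin. Fast adult muscle uses Myl1 as essential and Mylpf as regulatory light chain, slow and ventricular muscle uses Myl3 and Myl2, and Myl4 is the essential light chain of the atrium and of embryonic skeletal muscle. Mylk2, switched on by calcium and calmodulin, phosphorylates the regulatory light chain and so strengthens later contractions. Acta1 is the actin of adult skeletal muscle and Actc1 that of the heart, which embryonic skeletal muscle also makes.

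All 8 genes lie apart from one another in the mouse genome (GRCm38): Myl1 on chr1:66924295-66945404 (minus strand), Myl2 on chr5:122100951-122113472 (plus), Myl3 on chr9:110741861-110769798 (plus), Myl4 on chr11:104550663-104595753 (plus), Mylpf on chr7:127208890-127214298 (plus), Mylk2 on chr2:152911352-152923068 (plus), Acta1 on chr8:123891769-123894751 (minus), and Actc1 on chr2:114047282-114053548 (minus). Promoter windows of 300 bases, 250 before and 50 after the RefSeq start (GRCm38.p6), were found for 7 of the 8 genes, with Mylk2 the exception. Those of the actin pair are shown because the balance between both actins is compared between sides below. Capitals mark matches on either strand to the CArG box, the site of serum response factor, and to CANNTG, the E-box that myogenic factors such as MyoD bind, and the matches do not overlap.

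Acta1 (chr8:123894726-123895025, minus strand): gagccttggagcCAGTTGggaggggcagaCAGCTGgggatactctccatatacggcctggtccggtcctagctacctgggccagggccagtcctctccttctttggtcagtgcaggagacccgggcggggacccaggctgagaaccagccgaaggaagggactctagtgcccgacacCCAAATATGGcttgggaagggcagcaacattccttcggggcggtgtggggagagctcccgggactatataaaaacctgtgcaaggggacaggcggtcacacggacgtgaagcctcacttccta

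Actc1 (chr2:114052826-114053125, minus strand): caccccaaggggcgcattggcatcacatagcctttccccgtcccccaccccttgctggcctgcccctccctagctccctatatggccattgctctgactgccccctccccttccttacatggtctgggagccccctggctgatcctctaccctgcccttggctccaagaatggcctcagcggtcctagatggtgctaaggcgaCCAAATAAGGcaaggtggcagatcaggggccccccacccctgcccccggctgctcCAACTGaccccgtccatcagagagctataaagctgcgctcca

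Each actin window held 1 CArG box, starting 73 bases before the start in Acta1 and 47 bases before it in Actc1. The Acta1 window also held 2 E-boxes and the Actc1 window 1. A CArG box was present in 1.63% of 32851 windows of the same length and CANNTG in 72.3% of them. Of the other members, Myl3 had a CArG box and the Myl4 window had a match to neither motif. No window of the 7 genes held a MEF2 site, which 3.19% of all windows held. Both Myl2 windows end before the annotated Myl2 transcripts begin, and the Myl1 window does not cover the internal Myl1 start described below. Starts outside these windows were not searched. A match describes these letters and does not show binding.

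The deposited values were not counts, so reads per sample are not known from them. Sums per sample ran from 833186 to 1143839 TPM. Of 15 muscle markers chosen for this tissue (such as Ckm, Ttn, and Casq1), the summed level overlapped between sides at days 1 and 3, with ranges of 5075 to 25342 TPM in sham and 7267 to 14873 in denervated samples at day 1. At day 7 it was lower in all 3 denervated samples (18041 to 19954 TPM) than in sham (22770 to 26338). The markers did not move as 1 there: 6 of 15 had a positive and 9 a negative log2 fold change, with Neb and Actn3 called higher and Ckm and Eno3 lower (limma). At day 3, 7 had a positive and 8 a negative one. Actn3 was called higher (2.61, limma, adjusted p = 0.0475) and Eno3 lower (-1.15, adjusted p = 0.0391, or 0.0518 with the mouse as a block). The sum of 6 satellite cell and myoblast markers was higher in all denervated samples at each day, at 32.0 to 73.4 TPM against 1.81 to 6.05 at day 1, 233 to 330 against 9.26 to 12.2 at day 3, and 122 to 143 against 11.1 to 19.8 at day 7. Most of it was Myog and Myod1, factors of myoblast differentiation and commitment, whereas the satellite cell marker Pax7 stayed at 0.285 TPM or less in each of 18 samples. Of these 6 markers 2, 4, and 3 passed the filter at days 1, 3, and 7, and 0, 4, and 3 were called higher (limma). Of all genes tested, 0%, 1.45%, and 1.53% were called in either direction. Both markers of day 1 had an unadjusted p under 0.05. Mymk and Mymx at day 3 and Mymk at day 7 averaged 0.12, 0.39, and 0.48 TPM in sham samples. They passed the filter only through the denervated side, so their calls were partly set by the filter. The part of these marker differences in the results below was not tested. In such bulk samples, fewer cells of a type and less RNA per cell cannot be told apart. Most heart muscle markers were low, with Myh6 at 0.316 TPM or less, Ryr2 at 1.34 or less, Nppa at 1.62 or less, Myl7 at 1.95 or less, and Nppb at 7.47 or less in each of 18 samples. Only Tnni3, the cardiac troponin I, reached 8.38 to 22.4 TPM.

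Among the members, 3 genes formed the bulk of the RNA. Over the 9 sham samples Mylpf ran from 864 to 6303 TPM with a median of 3435, Myl1 from 818 to 5183 with a median of 3388, and Acta1 from 404 to 4261 with a median of 2820. These ranges overlapped throughout, so the order of the 3 is within their spread. Far below them came Actc1, at 18.9 to 337 TPM with a median of 159.9, then Mylk2 at 17.6 to 89.1 with a median of 35.4, and Myl4 at 3.38 to 23.0 with a median of 8.38. Ranges of Actc1 and Mylk2 and of Mylk2 and Myl4 overlapped in the sham samples, while Acta1 stayed above Actc1. Myl2 lay between 0 and 2.12 TPM and Myl3 between 0 and 0.767 over all 18 samples, and each was listed at 0 in at least 1 sample. The slow and ventricular light chains were thus close to the bottom of the scale in whisker pad, with Myl3 making up at most 0.0121% of the summed essential chains and Myl2 at most 0.0735% of Myl2 and Mylpf together.

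**Figure D1:**
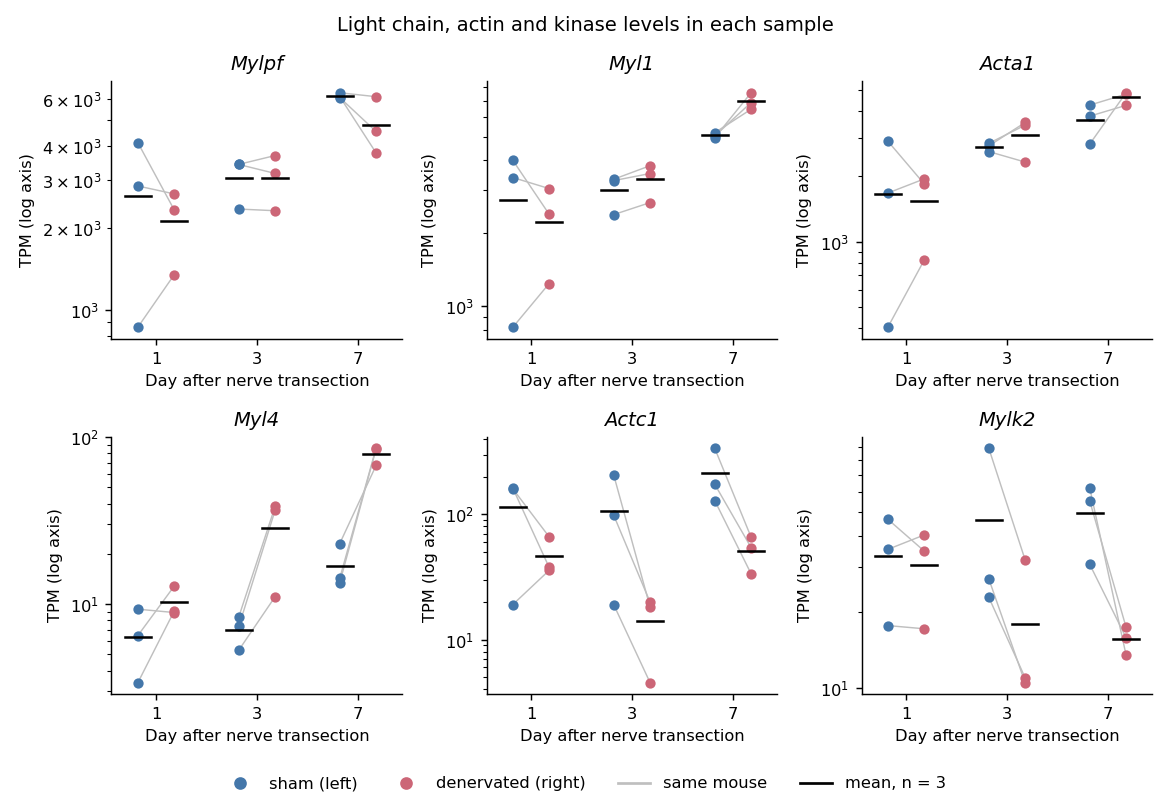
TPM (log axis) of 6 members in each of 18 samples by day, with sham and denervated samples of a mouse joined by a grey line and black bars at the means of n = 3 mice. Myl4 of the denervated side stood at 67.6 to 85.7 TPM at day 7 against 13.4 to 23.0 in sham, while Actc1 and Mylk2 lay below sham at that day and Mylpf, Myl1, and Acta1 were at 2820 TPM or more on both sides.

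The first question was which members differ between the denervated and the sham side at each day. For this, limma was run on log2(TPM + 0.5), p values were adjusted over all genes tested by the Benjamini-Hochberg method, and a gene was called at an adjusted p under 0.05, and fold changes of low genes are understated by the added 0.5. Filtering for genes at 1 TPM or more left 6 members at days 1 and 3 and 7 at day 7, since Myl3 never passed and Myl2 passed only at day 7. At day 1, 0 of 6 members were called with limma, where 0% of 14776 genes were, and none had an unadjusted p under 0.05 (0 of 6). At day 3, limma called 0 of 6 (2 with p under 0.05 before adjustment), where 1.45% of 14943 genes were. At day 7, 2 of 7 were called, Myl4 higher and Mylk2 lower, where 1.53% of 15081 genes were (1.01% higher and 0.511% lower). Over all days 1 of 6 was called, Myl4, where 3.1% of 14757 genes were (1.92% higher and 1.18% lower).

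Myl4, the atrial and embryonic essential light chain, was higher on the denervated side in 8 of 9 mice. In sham samples it stood at 3.38, 6.48, and 9.33 TPM at day 1, at 5.30, 7.35, and 8.38 at day 3, and at 23.0, 13.4, and 14.3 at day 7. On the denervated side of the same mice it stood at 9.08, 12.8, and 8.91 TPM at day 1, at 11.1, 36.5, and 38.4 at day 3, and at 67.6, 85.0, and 85.7 at day 7. The groups overlapped at day 1 and were apart at days 3 and 7, when every denervated sample was above every sham sample. Non-overlap in that direction was seen for 11.7% of genes at day 3 and 10.6% at day 7. Its log2 fold change was 0.72 ± 0.35 (SE, limma, adjusted p = 0.999) at day 1, 1.79 ± 0.48 (adjusted p = 0.161) at day 3, and 2.23 ± 0.22 (adjusted p = 0.00707) at day 7, so that Myl4 rose at day 7. Over all days it was 1.58 ± 0.27 (limma, adjusted p = 0.00334). The day 7 call was lost when any 1 of the 3 mice was left out, with limma adjusted p values of 0.0683, 0.170, and 0.0597 without mouse 1, 2, and 3 and log2 fold changes of 2.58, 2.04, and 2.07. Calls over all genes fell too, from 230 to 1, 5, and 127 without mouse 1, 2, and 3. The call over all days was kept without any 1 of the 9 mice (adjusted p of 0.00145 to 0.0204). Leaving out mouse 1 of day 3 gave a call at that day (limma, log2 fold change of 2.18 with adjusted p = 0.0189, within a range of 0.0189 to 0.697 over 14 alternatives).

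Myl1, the fast essential light chain, was called at no day. Its values at day 7 were 5028, 5183, and 4946 TPM in sham and 6904, 6478, and 7577 on the denervated side. The groups were apart, as they were in that direction for 10.6% of genes. The log2 fold change of 0.46 ± 0.12 did not pass (limma, adjusted p = 0.171, 95% interval of 0.17 to 0.75). At day 1 the sides overlapped, with a log2 fold change of -0.10 and a wide interval of -1.72 to 1.52. At day 3 it was 0.15, with an interval of -0.36 to 0.66.

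Mylpf, the fast regulatory light chain, was called at no day either. At day 7 it stood at 6051, 6101, and 6303 TPM in sham samples and at 4539, 3787, and 6097 on the denervated side. The third denervated sample reached into the sham range, and the log2 fold change was -0.38 ± 0.19 (limma, adjusted p = 0.485, 95% interval of -0.83 to 0.07). At day 3 the means were 3073 ± 624 TPM in sham and 3068 ± 699 in denervated samples (SD, n = 3 each), a log2 fold change of -0.01 with an interval of -0.59 to 0.58.

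The slow light chains gave little to compare. Myl2 was tested at day 7, at 1.42 ± 0.57 TPM in sham and 1.59 ± 0.26 in denervated samples (SD, n = 3 each), and was not called (log2 fold change of 0.17 ± 0.30, limma, adjusted p = 0.874). Myl3 was too low to be tested at any day.

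Mylk2, the skeletal light chain kinase, was lower on the denervated side at day 7. In sham samples it stood at 17.6, 35.4, and 46.6 TPM at day 1, at 89.1, 22.8, and 27.0 at day 3, and at 61.9, 55.0, and 30.8 at day 7. On the denervated side it stood at 17.1, 40.4, and 34.8 TPM at day 1, at 32.1, 10.9, and 10.5 at day 3, and at 13.5, 17.4, and 15.8 at day 7. Each day 3 mouse was lower on its denervated side, yet mouse 1 was high on both sides, so that the groups overlapped there and were apart only at day 7. All denervated samples lay below all sham samples for 7.06% of genes at day 7. The log2 fold change was -0.09 ± 0.45 at day 1 (limma, adjusted p = 0.999), -1.27 ± 0.63 at day 3 (adjusted p = 0.423), and -1.58 ± 0.27 at day 7 (adjusted p = 0.0449). In fits with the mouse as a block, Mylk2 had an adjusted p (limma) of 0.0224 at day 3, 0.0387 at day 7, and 0.0386 over all days, where the log2 fold change was -0.98 ± 0.22 with the block and -0.98 ± 0.33 without it (adjusted p = 0.139). At day 7 the call was close to the threshold, and it was lost without mouse 1 (limma, log2 fold change of -1.29 and adjusted p = 0.471) and without mouse 2 (-1.55 and adjusted p = 0.416). Without mouse 1 and mouse 2, limma called 1 and 5 genes in all. The Mylk2 call at day 7 passed in 6 of 14 alternatives, with adjusted p values of 0.016 to 0.471.

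Acta1, the skeletal actin, was called at no day. Its mean was 1663 ± 1251 TPM in sham and 1540 ± 622 in denervated samples at day 1, 2736 ± 121 and 3106 ± 675 at day 3, and 3624 ± 735 and 4633 ± 332 at day 7 (SD, n = 3 each). At day 7 the log2 fold change was 0.37 ± 0.18 (limma, adjusted p = 0.474, 95% interval of -0.05 to 0.80), and the groups overlapped at every day.

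Actc1, the cardiac and embryonic actin, lay lower on the denervated side in 8 of 9 mice. In sham samples it stood at 19.0, 159.9, and 161.8 TPM at day 1, at 18.9, 205, and 98.1 at day 3, and at 174.0, 128.9, and 337 at day 7. On the denervated side it stood at 35.7, 66.1, and 37.6 TPM at day 1, at 4.51, 18.1, and 19.8 at day 3, and at 54.3, 33.5, and 65.7 at day 7. Sham samples varied widely within a day, and the groups overlapped at days 1 and 3 but not at day 7. All denervated samples were below all sham samples at that day for 7.06% of genes. The log2 fold change was -0.82 ± 0.84 at day 1 (limma, adjusted p = 0.999), -2.57 ± 0.94 at day 3 (adjusted p = 0.285), and -1.98 ± 0.39 at day 7 (adjusted p = 0.0773), none of them called. In the blocked fits limma called Actc1 lower at day 3 (adjusted p = 0.0393), at day 7 (adjusted p = 0.00802), and over all days, where the log2 fold change was -1.79 ± 0.34 with the block (adjusted p = 0.0194) and -1.79 ± 0.51 without it (adjusted p = 0.0691). Over all days it was also called without mouse 1 of day 1 (limma, log2 fold change of -2.12 with adjusted p = 0.00907, where alternatives ran from 0.00907 to 0.17). Acta1 and Actc1 have nearly the same coding sequence, and how pseudoalignment divided shared reads between them was not tested.

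None of these differences was shown to change with time. In tests of the difference between days (limma interaction contrasts), 0 of 6 members were called for day 3 against day 1, day 7 against day 1, or day 7 against day 3, where 0.122%, 0.163%, and 0% of 14757 genes were called. Of the members, 0, 1, and 0 had an unadjusted p under 0.05. That 1 was Myl4 between days 1 and 7, whose log2 fold change was 1.51 higher at day 7 (95% interval of 0.26 to 2.76, limma, adjusted p = 0.6).

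**Figure D2:**
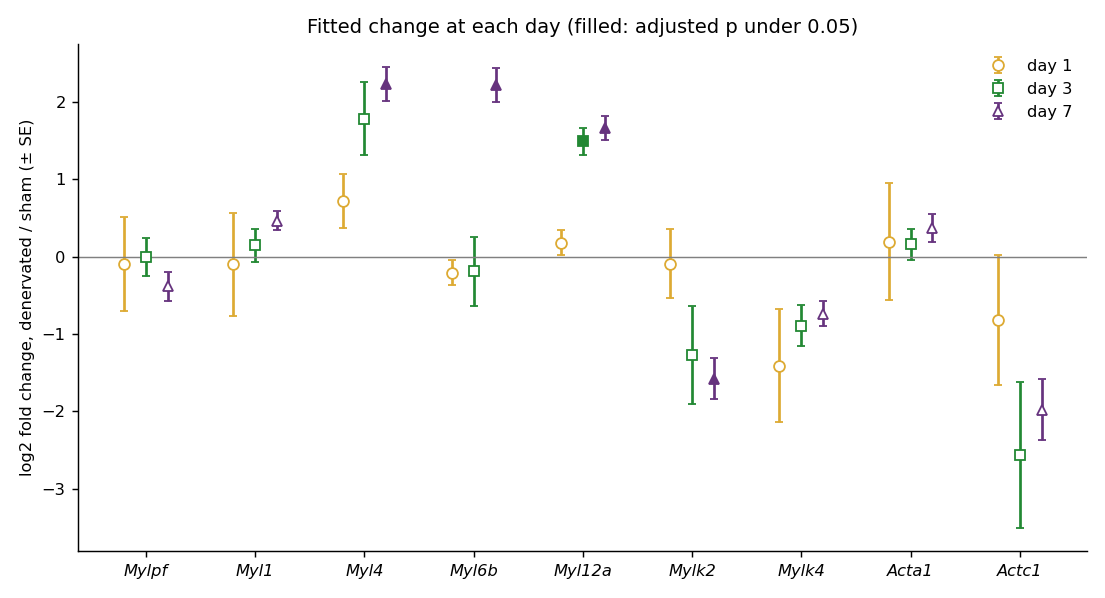
Log2 fold change (denervated over sham, ± SE from limma, n = 3 mice a side) of 6 members and of the related light chains Myl6b and Myl12a and kinase Mylk4 at days 1, 3, and 7, with filled symbols for an adjusted p under 0.05. Filled symbols stand at day 7 for Myl4 (2.23), Myl6b (2.22), Myl12a (1.67), and Mylk2 (-1.58), and at day 3 for Myl12a (1.49).

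Within each mouse, both sides can be set against each other directly. Myl4 was higher on the denervated side in 8 of 9 mice, by 1.58 ± 0.89 (SD) on the log2 scale, and the exception was mouse 3 of day 1 with -0.063. Actc1 was lower in 8 of 9 mice (-1.79 ± 1.17), and the exception was mouse 1 of day 1, where it was 0.89 higher. Mylk2 was lower in 8 of 9 mice (-0.98 ± 0.77). Over all genes, 1.94% were higher and 1.42% lower in all 9 mice, and no member was among them. Shares of genes with 1 sign in fewer than 9 mice were not counted, here or after the subtraction below. Counts such as 8 of 9 thus have no share of all genes beside them. Myl1 (0.17 ± 0.42) and Acta1 (0.24 ± 0.49) were higher in 7 of 9 mice, and Mylpf (-0.16 ± 0.44) was lower in 7 of 9. Mean differences of these 3 were smaller than their SD.

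The muscle content of the paired punches differed too. At day 1 the median difference of 15 muscle markers was 0.54 in mouse 1, -0.48 in mouse 2, and -1.04 in mouse 3 on the log2 scale, and Myl1 followed it with 0.60, -0.15, and -0.74, and Mylpf with 0.64, -0.10, and -0.82. At day 3 this median ran from -0.34 to 0.0083 and at day 7 from -0.58 to 0.25. Once it was subtracted in each mouse, Myl4, Myl1, and Acta1 were higher on the denervated side in 9 of 9 mice, Mylpf in 6 of 9, and Actc1 and Mylk2 were lower in 8 and 7 of 9. On that scale 0.955% of 14757 genes were higher and 0.596% lower in all 9 mice. Subtracting shifts a gene that does not follow muscle down in mouse 1 of day 1 and up in mice 2 and 3. These shares are therefore not a like background for genes made in muscle. Muscle markers themselves include genes that differ at days 3 and 7, so this subtraction is a second scale and not a correction.

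**Figure D3:**
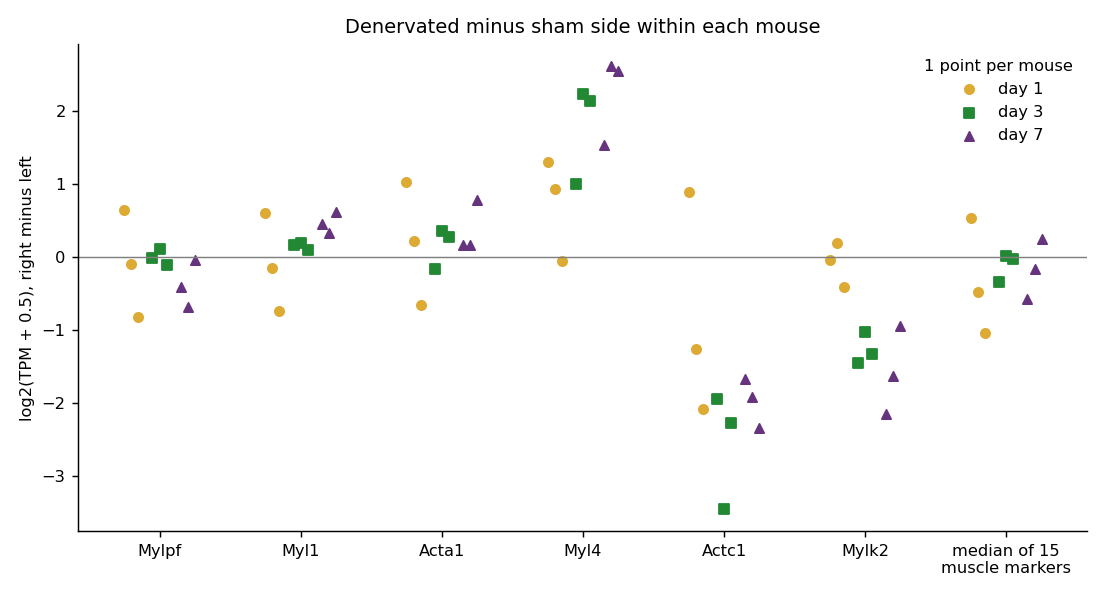
Denervated (right) minus sham (left) difference in log2(TPM + 0.5) for 6 members in each of 9 mice (1 point per mouse, by day) beside the median difference of 15 muscle markers. Points of Myl4 lie above 0 in 8 of 9 mice and those of Actc1 and Mylk2 below 0 in 8 of 9, while Mylpf, Myl1, and Acta1 spread on both sides of 0 at day 1 as the muscle markers do.

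Adult and embryonic or cardiac forms were next compared as shares within a sample, in which the amount of muscle in a punch cancels as far as both forms come from muscle, and which were not tested. Actc1 made up 4.50 to 8.70% of the summed Acta1 and Actc1 TPM in sham and 2.00 to 4.16% in denervated samples at day 1, 0.722 to 6.91% and 0.193 to 0.573% at day 3, and 3.29 to 10.7% and 0.783 to 1.34% at day 7. The denervated samples were thus below the sham samples at every day, with no overlap. How often shares of other gene pairs lie apart was not counted. Myl4 made up 0.191 to 0.412% of the summed Myl1, Myl3, and Myl4 TPM in sham and 0.372 to 0.728% in denervated samples at day 1, with overlap. Its share was 0.220 to 0.254% and 0.413 to 1.08% at day 3, and 0.259 to 0.456% and 0.970 to 1.30% at day 7, with no overlap. The Myl4 share counts all its transcripts, and 52.1% of the Myl4 level was in 1 annotated as a retained intron. At days 3 and 7 the shares of the embryonic light chain and the embryonic actin thus differed between sides in opposite directions, and both were minor forms of their family in each of 18 samples.

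A further contrast, chosen after its values were seen, was the balance between the fast essential and regulatory chains. The ratio of Myl1 to Mylpf TPM was 1.03 ± 0.13 in sham and 1.03 ± 0.11 in denervated samples at day 1 (SD, n = 3 each). It was 0.959 to 1.01 in sham and 1.02 to 1.15 in denervated samples at day 3, and 0.785 to 0.850 and 1.24 to 1.71 at day 7, so that the groups were apart at both days. Ratios of other gene pairs were not counted as a background. The ratio of Acta1 to Mylpf overlapped at days 1 and 3 and was 0.447 to 0.704 in sham and 0.797 to 1.12 in denervated samples at day 7. Myl1 against Acta1 overlapped at each day.

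**Figure D4:**
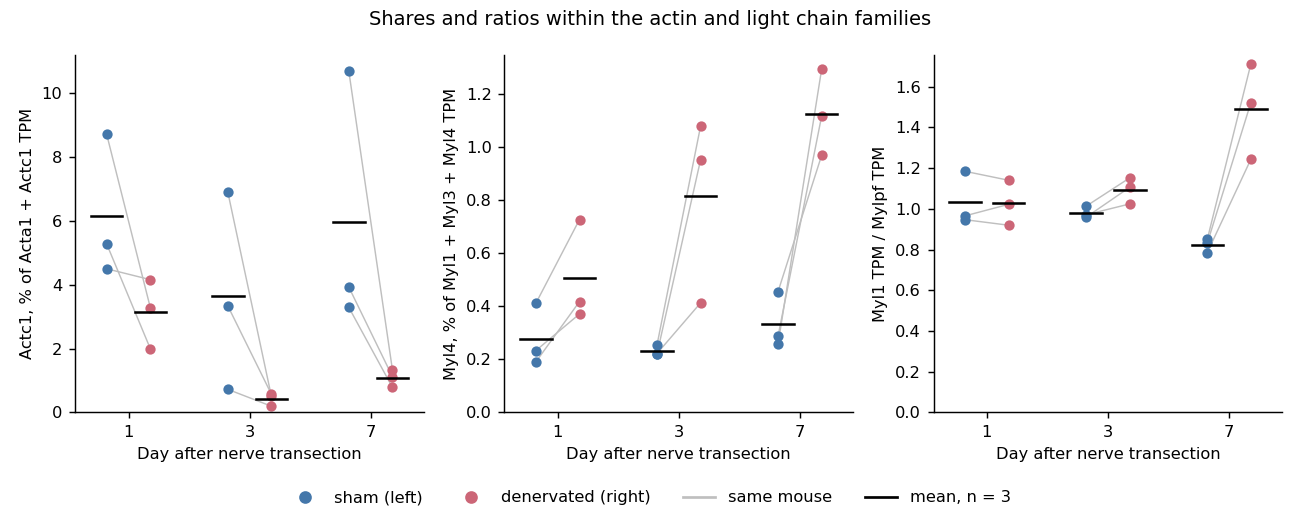
Share of Actc1 in the summed actins (percent), share of Myl4 in the summed essential light chains (percent), and the ratio of Myl1 to Mylpf TPM in each of 18 samples by day, with a grey line per mouse and black bars at the means of n = 3. At day 7 the denervated samples lie at 0.783 to 1.34% for Actc1 against 3.29 to 10.7% in sham, at 0.970 to 1.30% for Myl4 against 0.259 to 0.456%, and at a ratio of 1.24 to 1.71 against 0.785 to 0.850.

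Transcripts showed which forms carried these levels. Of the 44 member transcripts in the table, 20, 21, and 21 passed the filter at days 1, 3, and 7, and 0, 0, and 2 were called with limma (1, 4, and 10 at an unadjusted p under 0.05), where 0%, 0.3%, and 0.387% of all transcripts were. Both were Myl4 transcripts at day 7: the coding Myl4-203 (log2 fold change of 2.15 ± 0.25, adjusted p = 0.0373) and Myl4-204, annotated as a retained intron (1.94 ± 0.24, adjusted p = 0.0441). Blocking by mouse, an alternative added after the data were seen, left 0 transcripts of any gene called. Myl4-204 held 52.1% of the Myl4 level, Myl4-203 22.1%, and the coding Myl4-202 21.4%, whose mean at day 7 was 1.89 TPM in sham and 18.4 TPM on the denervated side (limma, adjusted p = 0.0754). Myl4-201, whose start the RefSeq promoter window covers, held 2.21%.

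Myl1 makes a long and a short essential chain from separate starts. The transcript from the internal start, Myl1-202 (chr1:66924298-66935354), held 83.6% of its level and the one from the upstream start, Myl1-201 (chr1:66924295-66945143), 12.9%. The share of Myl1-202 was 82.7 to 83.8% in sham and 77.3 to 83.7% in denervated samples at day 7, and the groups overlapped at each day. Mylpf-201 held 79.4% and Mylpf-206, which starts further upstream, 17.9% of Mylpf, and their shares overlapped between sides at each day. Acta1-201 and Actc1-201 held 98.6% and 99.9% of their genes.

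Members of the wider families were counted from lists that were chosen with earlier results of these data known. Of 14 other light chain, light chain kinase, and actin genes, 12 were tested at each day. Of them, 0, 1, and 2 were called higher at days 1, 3, and 7 and 0 lower, where 0%, 1.45%, and 1.53% of all genes were called. The median log2 fold change of the 12 at day 7 was -0.15, where that of all genes was 0.04. Myl12a, a regulatory light chain of nonmuscle myosin, rose at day 3 from 460 ± 83 to 1293 ± 199 TPM (SD, n = 3 each; log2 fold change of 1.49, limma, adjusted p = 0.0157). At day 7 it rose from 495 ± 67 to 1570 ± 193 TPM (1.67, adjusted p = 0.00611). Its change was larger at day 7 than at day 1 by 1.49 on the log2 scale (limma interaction, adjusted p = 0.0192, or 0.0637 when the mouse was a block). Myl6b, an essential light chain of slow and nonmuscle myosin, rose at day 7 from 4.89 ± 1.13 to 24.6 ± 5.4 TPM (log2 fold change of 2.22, limma, adjusted p = 0.00707).

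Of 9 genes of light chain phosphorylation, which include Mylk2, 8 were tested, and their median at day 7 was 0.11 on the log2 scale. Called at days 1, 3, and 7 were 0, 1, and 1 of the 8, where 0%, 1.45%, and 1.53% of all genes were. Besides Mylk2 at day 7, Calm3, a calmodulin gene, was called higher at day 3 (log2 fold change of 0.72, limma, adjusted p = 0.0468, or 0.0549 when the mouse was a block). Mylk4, a related kinase named after its values were seen, was not called at day 7 (34.2 ± 4.8 TPM in sham and 20.3 ± 3.0 in denervated samples, log2 fold change of -0.74, limma, adjusted p = 0.1). Over all days its log2 fold change was -1.01 (adjusted p = 0.0697 without and 0.0104 with the block).

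Of 21 partners in the thick and thin filaments, 17, 17, and 18 were tested at days 1, 3, and 7. Of them, 0, 0, and 2 were called higher and 0 lower, where 0%, 1.45%, and 1.53% of all genes were called. The median log2 fold change of the 18 at day 7 was 0.27. The 2 were Tnnt1, the slow troponin T (from 16.9 ± 4.1 to 55.8 ± 7.8 TPM, SD, n = 3 each, limma, a log2 rise of 1.71 with adjusted p = 0.0109), and Mybph, a myosin-binding protein (from 121.5 ± 23.0 to 328 ± 32 TPM, 1.44, adjusted p = 0.0117). The embryonic and perinatal myosin heavy chains Myh3 and Myh8, which accompany Myl4 in developing muscle, reached at most 1.12 and 6.28 TPM in any sample. Means of Myh8 were 0.506 TPM in sham and 0.356 in denervated samples at day 1, and 0.562 and 2.39 at day 3. At day 7 they were 1.11 ± 0.62 and 3.66 ± 2.31 TPM (SD), and Myh8 was not called (log2 fold change of 1.30, limma, adjusted p = 0.303). Myh3, too low to be tested at these days, had means of 0.26 and 0.86 TPM at day 7.

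Of 12 genes that build and trim actin filaments, all were tested at each day. Of them, 0, 0, and 4 were called higher at days 1, 3, and 7 and 0 lower, where 0%, 1.45%, and 1.53% of all genes were called. The median log2 fold change of the 12 was -0.36, 0.35, and 0.39 at days 1, 3, and 7, beside 0.0070, -0.015, and 0.039 over all genes. At day 7, Lmod2, which nucleates actin filaments, rose by 1.42 on the log2 scale (limma, adjusted p = 0.049), Cap2, which recycles actin monomers, by 1.15 (adjusted p = 0.0107), Neb, the nebulin that spans the thin filament, by 1.14 (adjusted p = 0.0117), and Cfl2, the muscle cofilin, by 0.86 (adjusted p = 0.0187). Over all days Lmod3, a leiomodin of skeletal muscle, fell by 1.25 on the log2 scale (limma, adjusted p = 0.0337). Neb is also one of the 15 muscle markers.

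Genes whose difference between sides varied over the 9 mice most like that of a member were ranked by Pearson's r among 14751 genes, as a description without a test, since the 9 points share libraries with all other genes. For Mylpf they were Vdac1 (r = 0.99), Atp5a1 (0.97), and Ndufa9 (0.96), and for Acta1 Cdc42ep2 (0.98), Casq1 (0.95), and Synpo2 (0.94). For Myl1 they were 1600014C10Rik (0.97), Ubl7 (0.97), and Zyg11b (0.96), and for Myl4 Emx2 (0.98), Gm12439 (0.97), and Ehbp1l1 (0.97). For Mylk2 they were Me3 (0.95), Slc25a25 (0.94), and Krtap19-2 (0.94), and for Actc1 Gm9507 (0.94), Arid1b (0.92), and Max (0.92). Those of Myl2 (Fndc3b, Camkk2, Emilin1) and Myl3 (Syn3, Nrxn2, Tap1) had r of 0.92 to 0.96 and rest on values near 0.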

How the data were processed

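Punches from 18 whisker pads (9 mice, both sides) were analysed. The authors prepared libraries from total RNA with a TruSeq kit, base-called reads with bcl2fastq 2.17.1.14, removed duplicate reads, trimmed adapters, pseudoaligned reads to Ensembl GRCm38 cDNA with kallisto 0.43.1, and loaded the results into sleuth. Removing duplicates without molecular identifiers can compress the highest levels, such as those of Acta1 and Mylpf, which was not tested. The deposited values are a signal, TPM per transcript that the authors also scaled between samples. They are not counts, so no count test was run. The tests had been chosen for plain TPM and were kept.

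Of 113194 transcripts, 98.46% matched GENCODE M21, with 99.48% of the summed TPM, and were summed by gene. A gene entered a fit when 47% or more of its samples reached 1 TPM. Sides were compared by limma 3.58.1 (R 4.3.3), which took log2(TPM + 0.5) and a trend of variance on level, and p values were adjusted over all genes by Benjamini-Hochberg. The fits were 1 for each day (side), 1 over all days (day and side), and 1 with group means for differences between days. Replicates are separate mice. The sides of a mouse share its label, and their deviations from the group means correlated in all 9 mice (r of 0.163 to 0.569), so each fit was repeated with the mouse as block. Day 7 columns were matched to samples by the library number that their names share with the titles. Scripts were tested on simulated data. Other work used Python 3.11.15, numpy 2.4.6, and pandas 2.3.3.

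All members, list genes that passed a test (at most 4 per list), and for each member the 3 genes most like it were named, and 1 list gene under this rule is not reported here. The members and lists were chosen with earlier results of these data known, and so were the tests. Alternatives were pseudocounts of 0.1 and 1, minimums of any TPM above 0 and of 5, 3 other scalings, no trend, the block, 1 fit of all 18 samples, the highest transcript of each gene, and leaving out each mouse.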

Additional observations from a re-analysis of the deposited data

How the results depend on the processing

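Counts of members called, as limma's test gave them, changed with the setting. At day 3 the count of 0 became 2 with the mouse as a replicate block (Mylk2 and Actc1), 1 in a fit of all 18 samples, and 0 to 1 with a mouse left out. At day 7 the count of 2 became 1 (Myl4) with a TPM above 0 as the minimum, with median-of-ratios scaling, with equal sums, with no trend, in the fit of all 18 samples, and with the highest transcript of each gene, and 0 to 1 with a mouse left out. The block gave 3 there, with Actc1 added as lower (log2 fold change of -1.98, limma, adjusted p = 0.00802, or 0.0773 without the block). Over all days the count of 1 became 2 with scaling to muscle markers and 3 with the replicate block (Mylk2 and Actc1 added), and was 1 to 2 with a mouse left out. For transcripts at day 7 the count of 2 became 0 with the replicate block. The block changed no other call of a member, and at day 1 and between days no setting called one.

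No called value changed its sign. Signs that turned were of small differences that were not called. At day 1, scaling to muscle markers gave log2 fold changes of 0.16 for Myl1, 0.17 for Mylpf, and 0.17 for Mylk2, and with a mouse left out they ran from -0.45 to 0.22 for Myl1, -0.46 to 0.27 for Mylpf, -0.23 to 0.073 for Mylk2, and -0.22 to 0.62 for Acta1. With muscle markers Mylpf turned to 0.042 at day 3, to 0.00096 over all days, and to -0.12 for day 3 against day 1. With a mouse left out, Mylpf at day 3 ran from -0.065 to 0.044 and Myl2 at day 7 from -0.019 to 0.30. For day 3 against day 1, Myl1 then ran from -0.075 to 0.59, Mylpf from -0.28 to 0.45, and Acta1 from -0.46 to 0.38 (0.12 without day 3 replicate 1). For day 7 against day 1, Mylpf ran from -0.66 to 0.076 and Acta1 from -0.25 to 0.59 (-0.029 without day 7 replicate 3). Scaling to muscle markers moved the median log2 fold change of all genes to 0.24 at day 1, 0.20 at day 7, and 0.15 over all days.

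With 3 mice a day, p values rest on few samples, and leaving out 1 leaves 2. Both punches of mouse 1 of day 1 were low in muscle. Depth is not known from the values, and the error of the low genes Myl2, Myl3, and Myl4 from counting was not measured. Wide intervals of Myl1, Mylpf, and Acta1 at day 1 do not show that the sides were alike.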
